A study of Mus musculus with 16 samples.

Results

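miR-140 is a single mouse hairpin whose stem gives 2 mature miRNAs, mmu-miR-140-3p and mmu-miR-140-5p (miR-140-3p and miR-140-5p from here on), and both were read in mouse serum at 4 ages. They were picked by name from the 1881 mouse miRNAs on the array, as 2 of 2 arms, with their lower signal at older ages in these same arrays already known. Differences between ages are therefore given as a description of these arrays, with their errors and without a p-value. Male mice aged 4, 8, 36 and 58 weeks were bled from the heart, and RNA from the serum of 4 mice per age was labelled with Cy3 at an equal mass of RNA for each of 16 arrays. Strain and genotype are not given in the sources used here, the labels name no treatment, and the series was made to look for serum miRNAs that change as mice age.

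A hairpin precursor is cut by Dicer into a duplex, and either strand can be loaded into Argonaute and guide it to messenger RNAs that pair with the seed, the bases near the miRNA's 5′ end. miR-140 is made from an intron of Wwp2, a ubiquitin ligase gene that chondrocytes transcribe under the control of SOX9, and it is among the most abundant miRNAs of cartilage and growth plate. Mice without it have short limbs and skulls and early wear of joint cartilage, and known targets of the 5p arm include Hdac4, a brake on chondrocyte hypertrophy, and Adamts5, an enzyme that degrades aggrecan. Serum collects miRNAs from many tissues, so that its miR-140 cannot be assigned to cartilage from these arrays.

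The hairpin is shown whole because both arms come from it, with the mature 3p arm in capitals. It lies at chr8:107551244-107551313 on the plus strand (GRCm38.p6, sequences from RefSeq), inside the annotated span of Wwp2, and its 70 bases hold the 3p arm at positions 45 to 65, while the 5p arm comes from the opposite side of the stem.
Mir140 hairpin: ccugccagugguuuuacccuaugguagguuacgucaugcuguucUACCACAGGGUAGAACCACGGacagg
The mature 3p arm lies at chr8:107551288-107551308 and is shown again with its seed, bases 2 to 8, in capitals.
miR-140-3p: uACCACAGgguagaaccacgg
Of 1679 mature mouse miRNAs in the RefSeq table, 1 other, miR-497b, had the same seed. It was on the array and was detected on 0 of 16 arrays.

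The signal of a miRNA is the mean background-subtracted fluorescence of its spots, an arbitrary intensity that can be negative. Each arm was read by 2 probes of 15 spots each. A miRNA counts as detected where the scanner software says so. For comparisons, each array was scaled so that the 24 miRNAs detected everywhere had an equal 75th percentile, and log2 was taken after setting values under 3.79 to that floor. Per the file headers slide 1 held the arrays of 4 and 8 weeks and slide 2 those of 36 and 58 weeks, so that only 8 against 4 weeks and 58 against 36 weeks lie within a slide. Between slides, age and slide cannot be told apart. On 36-week replicate 4 the negative-control spots had an SD of 59.3, against 1.82 to 19.1 on the other 15 arrays. Differences of 36 against 4 weeks and other results that move without this array are also given without it.

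mmu-miR-140-3p was brightest in the serum of the youngest mice, dimmer at 8 weeks, and detected on 3 of 4 arrays at 36 weeks and 4 of 4 at 58 weeks. Before scaling, its intensity was 318, 286, 347 and 207 on the 4 arrays of 4 weeks. It was 104, 70.4, 39.0 and 151 at 8 weeks. At 36 weeks it was 24.7, 58.3, 158 and -121, and at 58 weeks 27.5, 12.6, 36.3 and 15.96. All 4 arrays of 4 weeks were thus brighter than any of the 12 arrays of older mice, of which 36-week replicate 3 and 8-week replicate 4 came closest. The arm was detected on 15 of 16 arrays, with 36-week replicate 4 as the exception.

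mmu-miR-140-5p, read by other probes, had intensities of 204, 63.7, 84.4 and 107 at 4 weeks. It read 24.4, 39.0, 21.7 and 4.15 at 8 weeks. At 36 weeks it read 19.4, 19.7, 30.0 and -12.6, and at 58 weeks 17.8, 9.36, 22.1 and 11.9. Here too the 4 arrays of 4 weeks lay above all 12 others, but the 3 older ages overlapped throughout. The software detected it on 11 of 16 arrays: 4 from 4 weeks, 3 from 8 weeks, 3 from 36 weeks and 1 from 58 weeks. In these bulk sera, fewer cells releasing miR-140 and less miR-140 released per cell cannot be told apart.

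**Figure D1:**
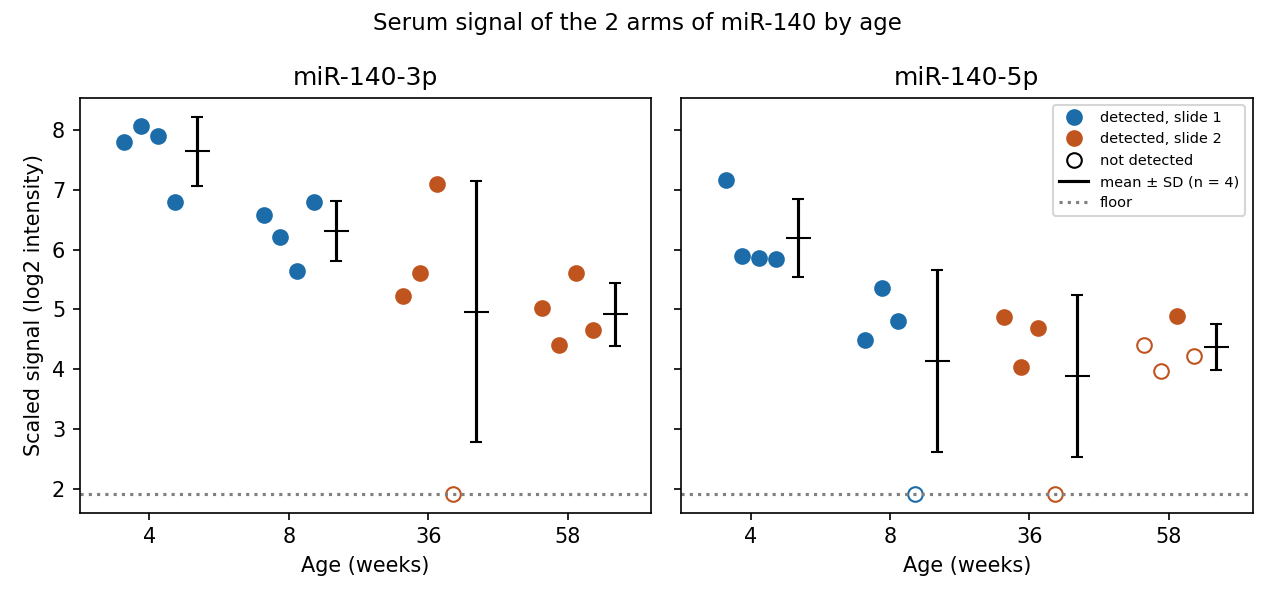
Scaled log2 signal of miR-140-3p (left) and miR-140-5p (right) against age in weeks, 1 point per array, filled where the arm was detected and open where it was not, coloured by slide; black marks are the mean ± SD of 4 arrays and the dotted line is the floor of 3.79. All 4-week points of miR-140-5p lie above every older point, and the points on the floor are 36-week replicate 4 for both arms and 8-week replicate 4 for miR-140-5p.

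After scaling, miR-140-3p averaged 7.64 ± 0.58 on the log2 scale at 4 weeks (SD, n = 4 at each age) and 6.31 ± 0.50 at 8 weeks. The mean was 4.96 ± 2.18 at 36 weeks, with 4.92 ± 0.53 at 58 weeks. Without replicate 4 the 36-week mean was 5.97 ± 0.99 (n = 3). The 36-week mean lay above the 58-week mean with and without that array, but the size of the gap rested on it. The gap was below either SD with it and above either SD without it. At 58 weeks the log2 level was 4.40 to 5.61, against 6.79 to 8.06 at 4 weeks, and the groups did not overlap. The 58-week levels also lay below the 8-week levels of 5.65 to 6.79, a pattern that 3.51% of tested miRNAs had. The 8-week levels overlapped those of 4 weeks only at 4-week replicate 4.

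The log2 difference of miR-140-3p was -2.72 ± 0.81 (SE) for 58 against 4 weeks, a 6.58-fold lower mean. It was -2.68 ± 0.81 for 36 against 4 weeks, or -1.66 without 36-week replicate 4, and -1.33 ± 0.81 for 8 against 4 weeks on the same slide. For 58 against 36 weeks, again within a slide, it was -0.04 ± 0.81, which became -1.05 without 36-week replicate 4 and 0.67 without 36-week replicate 3. The fitted slope over all ages was -0.69 ± 0.18 per doubling of age, and -0.92 ± 0.66 with slide as a block. The median slope over all tested miRNAs was 0.12 without that block and -0.58 with it. Within slides the difference was thus negative for 8 against 4 weeks, while the sign for 58 against 36 weeks rested on single arrays. The SE of every difference comes from 1 spread shared by all 4 ages, also where 36 weeks is not compared. That spread was raised by 36 weeks, with an SD of 2.18 (0.99 without replicate 4). The SD was 0.58, 0.50 and 0.53 at 4, 8 and 58 weeks.

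Scaled miR-140-5p averaged 6.19 ± 0.65 at 4 weeks and 4.14 ± 1.52 at 8 weeks (log2, SD, n = 4 at each age). Its mean was 3.88 ± 1.36 at 36 weeks, or 4.54 ± 0.44 without replicate 4 (n = 3), and 4.37 ± 0.39 at 58 weeks. Its lowest 4-week array, at 5.84, lay above the highest of the other ages, at 5.36 for 8 weeks, 4.88 for 36 weeks and 4.89 for 58 weeks. The 3 older ages differed from each other by less than their spread.

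For miR-140-5p the log2 difference was -2.05 ± 0.75 (SE) for 8 against 4 weeks, a 4.14-fold lower mean on the same slide. It was -1.31 without 8-week replicate 4, the array where this arm lay at the floor. The difference was -2.31 ± 0.75 for 36 against 4 weeks, or -1.65 without 36-week replicate 4, and -1.82 ± 0.75 for 58 against 4 weeks. It was 0.49 ± 0.75 for 58 against 36 weeks, and -0.16 without 36-week replicate 4. The means at 8, 36 and 58 weeks thus lay closer to each other than to that of 4 weeks. The arm was detected on 1 of 4 arrays at 58 weeks, so that its mean there rests largely on undetected signal. With the deposited total signal, which is 0.1 where an arm was not detected, 58 weeks differed by -3.40 from 4 weeks and by -0.92 from 36 weeks. On the scaled signal the slope was -0.41 ± 0.19 per doubling of age, and -1.16 ± 0.68 with slide as a block. With that block the median over all miRNAs shifted as given for the 3p arm. Without the 3 arrays that the scanner software marked for evaluation it was -0.17 ± 0.17. The SE of the differences again comes from 1 spread shared by all ages, whose SD ran from 0.39 at 58 weeks to 1.52 at 8 weeks.

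Of 285 miRNAs detected on at least 3 of 4 arrays of some age, 1 passed an adjusted p of 0.05 for the slope over age in limma (0.351%), and it was miR-214-3p, not an arm of miR-140. The same share of 0.351% passed for 36 against 4 weeks and for 58 against 4 weeks, again miR-214-3p alone, and 0% passed for 8 against 4 weeks and for 58 against 36 weeks. At an unadjusted p under 0.05, 6 (2.11%) and 5 (1.75%) passed in those 2 comparisons. For 58 against 4 weeks, both arms had arrays that did not overlap and were lower at 58 weeks, as had 2.81% of tested miRNAs. For 58 against 36 weeks neither arm did, against 0.351% of tested miRNAs. In 8 against 4 weeks miR-140-5p did so and miR-140-3p did not (3.86% of tested miRNAs), and the same held for 36 against 4 weeks (1.4%, or 2.46% without 36-week replicate 4). Without that array 0 miRNAs passed limma's adjusted p for 36 against 4 weeks, with 13 at an unadjusted p under 0.05. In the ranking of log2 differences for 58 against 4 weeks, from the lowest, miR-140-3p was number 2 and miR-140-5p number 5 of 285, where the median was -0.0031. Since the arms were picked for this pattern, these counts and places support nothing further.

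**Figure D2:**
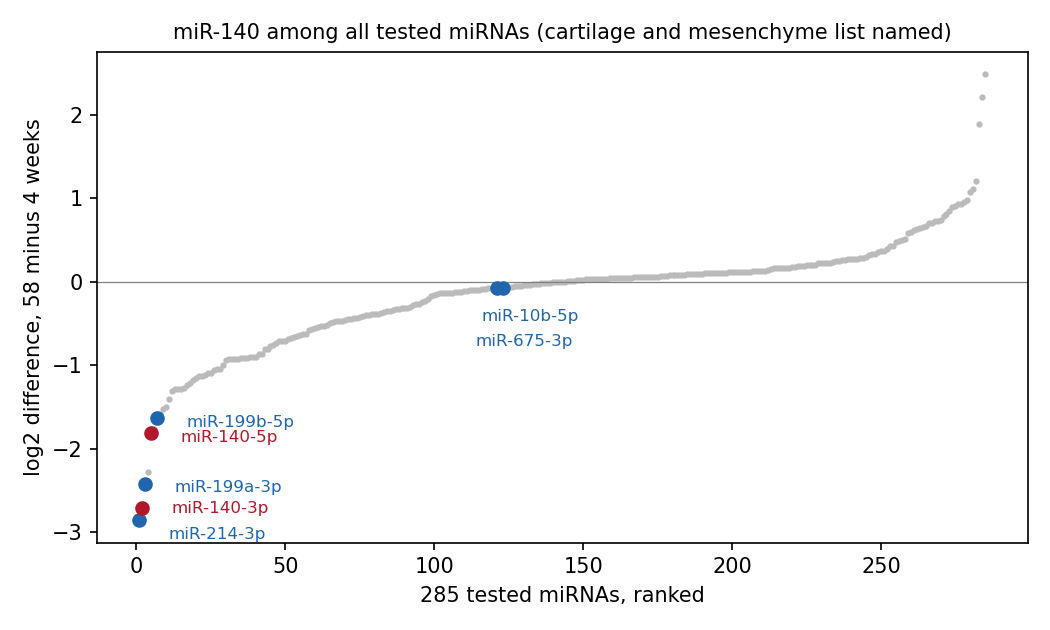
Log2 difference of 58 minus 4 weeks for the 285 tested miRNAs in rank order, 1 grey point each, with the 2 arms of miR-140 in red and the other tested members of the cartilage and mesenchyme list in blue. The arms lie at -2.72 and -1.82, at the low end; the value of miR-214-3p, detected on no array at 58 weeks, depends on the floor.

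The array-wide signal also differed between ages. Before scaling, the log2 75th percentile over the 24 common miRNAs was 9.57 to 10.38 on the 4-week arrays and 9.12 to 9.93 on those of 8 weeks. It was 8.88 to 9.74 at 36 weeks, and at 58 weeks it was 8.74 to 9.23. With no scaling the difference for 58 against 4 weeks was -3.75 for miR-140-3p and -2.85 for miR-140-5p, where the median over all tested miRNAs was -0.95. Under quantile normalisation the 2 arms stood at -2.80 and -1.83, with a median of 0.06. For 8 against 4 weeks the median over all miRNAs was -0.72, and 229 of 285 (80.4%) were lower at 8 weeks. Relative to that shift the arms had smaller differences. Under quantile normalisation, which set that median to 0.25, miR-140-3p was at -0.70 and miR-140-5p at -0.86.

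How far the readings lay above background was looked at in 1309 miRNAs detected on no array. At 58 weeks the 99th percentile of their intensity ran from 1.92 to 10.9, and miR-140-3p was above it on all 4 arrays. On 58-week replicate 2, the dimmest, miR-140-3p read 12.6 against a 99th percentile of 8.22, and miR-140-5p read 9.36. On 8-week replicate 4 the 5p arm read 4.15 against a 99th percentile of 3.70. The 95th percentile on 36-week replicate 4 was 124, above the intensity of both arms on that array. At 58 weeks miR-140-3p was thus close to the background on the dimmest arrays, and the 5p arm passed the detection call on 1 of 4.

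Both probes of each arm were compared, since each reads the same miRNA with its own affinity. For miR-140-3p, probe A_54_P3308 was the brighter. Its ratio to probe A_54_P3307 had a median of 3.97 over the 11 arrays with more than 10 units on the dimmer probe, and ran from 3.36 to 6.09. The 58 against 4 week difference was -2.54 from the brighter probe alone and -3.55 from the dimmer one, which read as low as 0.1 on 58-week replicate 2. For 58 against 36 weeks the 2 probes had opposite signs, 0.29 and -1.13. For miR-140-5p, probes A_54_P1076 and A_54_P1075 stayed closer, with a median ratio of 1.21 over 13 arrays (0.97 to 1.38) and 58 against 4 week differences of -1.97 and -1.64. The median coefficient of variation over the spots of a probe was 5.04% to 8.81% on arrays with more than 20 units.

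**Figure D3:**
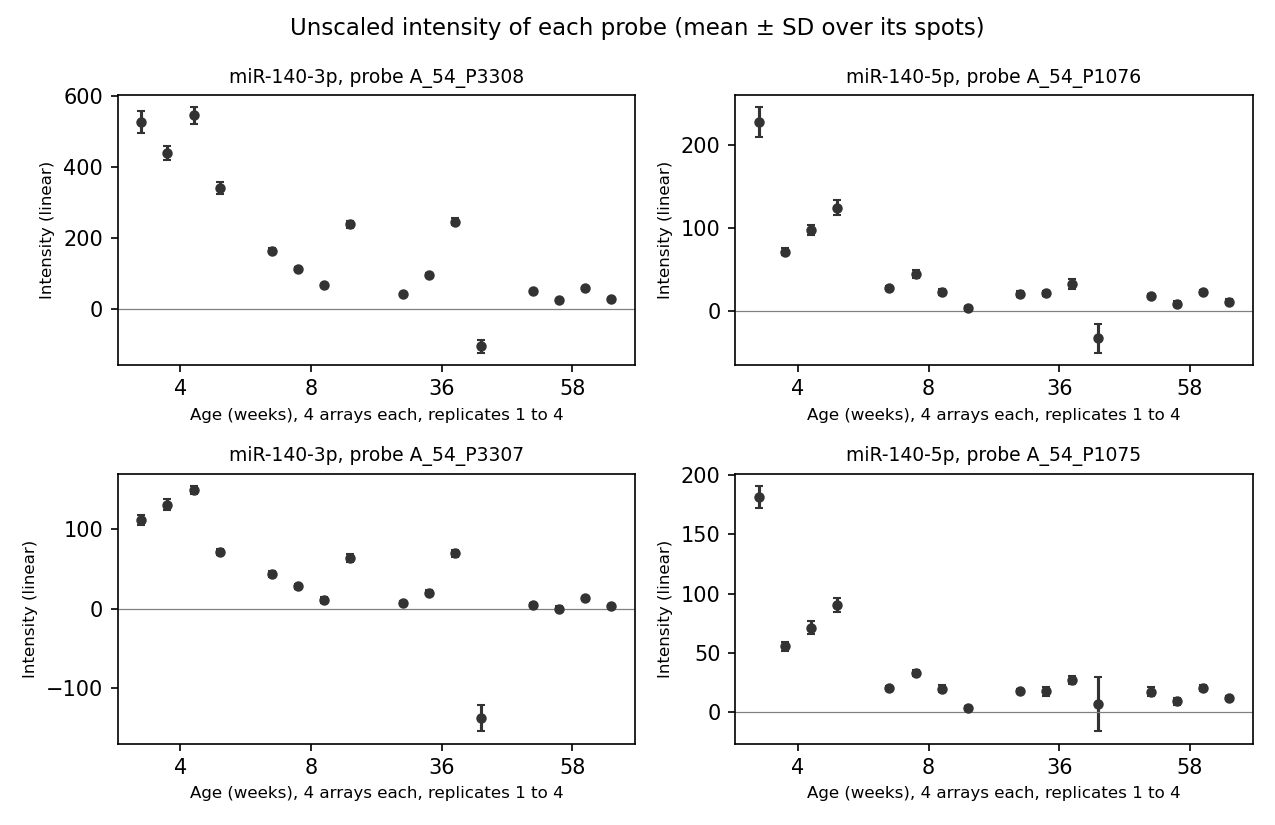
Unscaled linear intensity of each of the 4 probes, 1 point per array in order of age in weeks and replicate, with bars for the SD over its spots (13 to 15 per probe and array). Every probe is brightest at 4 weeks, and 36-week replicate 4 falls below 0 on 3 of the 4 probes.

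The 2 arms were then set against each other within each array, where scaling between arrays cancels unless an arm is at the floor. Because the arms have different probes, the ratio does not give their relative abundance, but its spread between arrays can be described. The unscaled ratio of 3p over 5p intensity was 1.56, 4.48, 4.12 and 1.93 at 4 weeks. It was 4.27, 1.81, 1.80 and 36.5 at 8 weeks, and 1.27, 2.95 and 5.28 at 36 weeks, where replicate 4 gave none. At 58 weeks it was 1.54, 1.35, 1.64 and 1.34. The 58-week ratios were all near the lower end of the other ages, and on 3 of those 4 arrays the 5p arm was not detected.

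8-week replicate 4 stood out among these ratios. There the 3p arm was the brightest of its age at 151, with both its probes high at 239 and 64.0, while the 5p arm read 4.40 and 3.91 on its 2 probes. Each of these 4 probes kept all 15 spots, and the SD over spots was 1.67 and 1.84 for the 5p probes.

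On the scaled log2 scale, 3p minus 5p averaged 1.45 ± 0.77 at 4 weeks and 2.17 ± 1.90 at 8 weeks (SD, n = 4 at each age). It averaged 1.08 ± 1.11 at 36 weeks and had a mean of 0.55 ± 0.14 at 58 weeks. Without 36-week replicate 4, where both arms lay at the floor, the 36-week mean was 1.44 ± 1.03 (n = 3). The difference between ages was -0.90 ± 0.82 (SE) for 58 against 4 weeks, 0.72 ± 0.82 for 8 against 4 weeks and -0.53 ± 0.82 for 58 against 36 weeks. For 58 against 36 weeks the value became -0.89 without 36-week replicate 4 and -0.09 without 36-week replicate 3. The difference was -1.09 ± 0.82 for 36 against 8 weeks, which also uses 36-week replicate 4, and -1.62 ± 0.82 for 58 against 8 weeks. Both use 8-week replicate 4. Without that array the value for 8 against 4 weeks was -0.18. Without the 3 arrays marked for evaluation the value for 58 against 4 weeks was -1.55 ± 1.04. Over the 11 arrays that detected both arms, a choice made after seeing the data, the slope of the arm difference was -0.06 ± 0.16 per doubling of age, against -0.29 ± 0.18 over all 16.

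**Figure D4:**
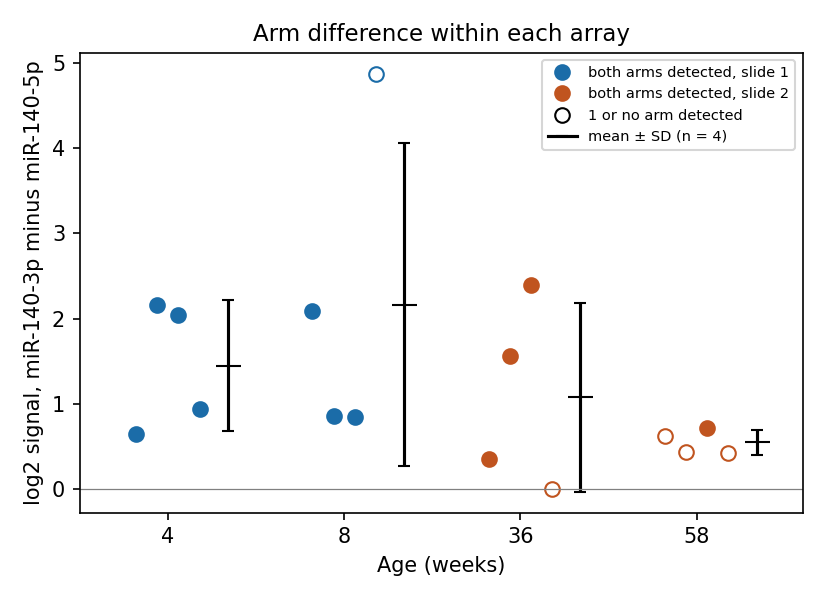
Log2 signal of miR-140-3p minus miR-140-5p within each array against age in weeks, filled where both arms were detected and open where 1 or none was; black marks are the mean ± SD of 4 arrays. The highest point, 4.87, is 8-week replicate 4, and the 58-week points lie between 0.42 and 0.71.

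The arms were also compared with those of the 23 other hairpins that had both arms among the tested miRNAs. The log2 arm difference of miR-140 had an SD of 1.21 over the 16 arrays, the place of number 20 of 24 from the highest, where the median was 2.43 and the range 0.62 to 3.12. Without 36-week replicate 4 its SD was 1.20, number 19 of 24, and the median 1.82. Its neighbours in that order were miR-125a at 1.57, a widely expressed miRNA, and miR-150 at 1.08, a lymphocyte miRNA. The 2 arms of miR-140 correlated with r = 0.67 over the 16 arrays and had place number 1 of 24, where the median was -0.56. Without 36-week replicate 4 the r was 0.49 and the place number 3, where the median was -0.50. These correlations share the background and scaling of each array and are given as a description. The arms of miR-140 were also picked with their lower signal at older ages known. That choice favoured a high r, so that its place supports nothing further. Both arms of miR-140 were detected together on 11 arrays, against 5 for miR-125a and 8 for miR-150. Over the 24 hairpins this count ran from 0 to 14, and it was 1 for several. The medians and places thus include many arms at the floor or in the background, and the part of this in them was not tested.

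**Figure D5:**
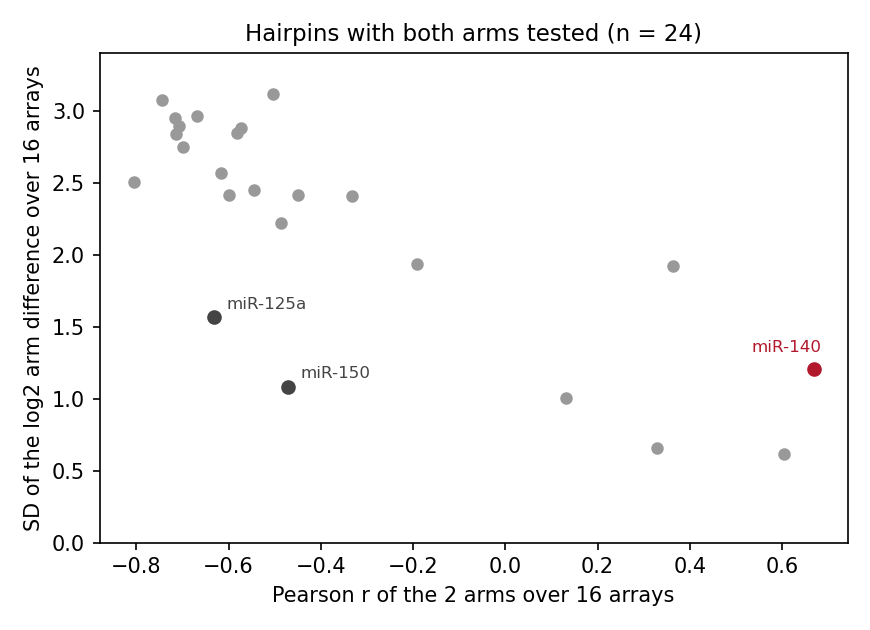
SD of the log2 arm difference over 16 arrays against Pearson r of the 2 arms, 1 point for each of the 24 hairpins with both arms tested. miR-140 (red) lies at the right, at r = 0.67 and an SD of 1.21, with its neighbours by SD, miR-125a and miR-150, named.

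Other miRNAs of cartilage and connective tissue were read beside miR-140. Of 15 in that list, 7 were tested. Besides the 2 arms, the 5 tested members were all lower at 58 than at 4 weeks. Their median log2 difference was -1.64 (the same with miR-214-3p at its bound), where 50.5% of all tested miRNAs were lower, with a median of -0.0031. Of the 5, miR-10b-5p was detected on 3 arrays of each age. miR-675-3p, miR-199a-3p, miR-199b-5p and miR-214-3p reached 3 detected arrays only at 4 or 8 weeks. The filter thus favoured a lower 58-week level in them, and the count of 5 supports nothing further. With quantile normalisation and with normexp background correction miR-10b-5p turned to 0.06 and 0.03. The list was drawn up with earlier results of these arrays known.

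miR-199a-3p, a miRNA of fibroblasts and other mesenchymal cells, averaged 3.51 at 58 weeks and 5.93 at 4 weeks (log2), detected on 1 of 4 arrays at the later age and 4 of 4 at the earlier one. Its 5p arm was detected on 4 of 16 arrays and was not tested. miR-214-3p, made from the same transcript as the chr1 copy of miR-199a-3p, passed the detection call on 0 of the 58-week arrays and 3 of the 4-week arrays. Its mean was at least 3.16-fold lower at 58 weeks. The limma adjusted p of 0.0199 belongs to the floored log2 difference of -2.86, with every 58-week array at the floor. This miRNA reached 3 detected arrays only at 4 and 8 weeks, so that the filter favoured a lower 58-week level and the p supports nothing further. Under 11 of 34 settings no miRNA passed for 58 against 4 weeks, among them quantile normalisation, the replicate block and the removal of any single 58-week array or of 4-week replicate 2 or 3. For miR-199b-5p the log2 difference was -1.64. The others, miR-675-3p of the imprinted H19 transcript at -0.08 and miR-10b-5p of the Hox clusters at -0.07, had the smallest differences of the 5. For 36 against 4 weeks, where 43.2% of tested miRNAs were lower (62.1% without 36-week replicate 4), the direction of some rested on that array. With it and without it the values were -2.37 and -1.82 for miR-199a-3p, -0.33 and -1.004 for miR-199b-5p, 0.50 and -0.33 for miR-10b-5p, and 0.74 and -0.51 for miR-675-3p. The median over all miRNAs was 0.32 with it and -0.06 without it. miR-214-3p, detected on 0 of the 36-week arrays, was at least 1.91-fold lower with that array and at least 4.61-fold lower without it.

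miR-455, which sits in the collagen gene Col27a1 and is enriched in chondrocytes, was detected on few arrays. Its 3p arm was detected on 2 of 16 arrays and its 5p arm on 1, all of them from 4 weeks. The mean log2 signal of the 5p arm was 3.34 at 4 weeks and 3.36 at 36 weeks. Since 0 arrays of 36 weeks detected that arm, these means do not show an equal level. miR-675-5p, miR-214-5p, both arms of miR-145a and miR-143-3p were detected on 0 of 16 arrays.

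For 8 against 4 weeks all 5 tested members of the list besides miR-140 were lower, with a median of -1.25. Of all tested miRNAs 80.4% were lower, and the median was -0.72. miR-675-3p passed the filter only at 4 weeks, with 3 detected arrays there and 2 at 8 weeks. Under quantile normalisation miR-199b-5p was at 0.09 and miR-10b-5p at 0.0075, so that their direction depended on the scaling. With normexp, miR-214-3p was at 0.01 and miR-10b-5p at 0.03.

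Markers of blood cells and other tissues were read as well, since serum can hold RNA from all of them. Of the erythrocyte list, 4 of 7 were tested and 2 of 4 were lower at 58 than at 4 weeks, with a median log2 difference of 0.08. The summed level of its members was 4496 to 7850 scaled units at 58 weeks and 5154 to 8183 at 4 weeks. Of the platelet and endothelium list, 0 of 5 tested members were lower (median 0.11), and the sums were 1724 to 2044 at 58 weeks and 1086 to 1621 at 4 weeks. Leukocyte miRNAs were lower in 0 of 4 (median 0.95), with sums of 337 to 418 at 58 weeks and 138 to 328 at 4 weeks. Striated muscle miRNAs were lower in 1 of 2 (median -0.67), with sums of 82 to 290 and 87 to 324 at those ages. Liver miRNAs were lower in 1 of 2 (median 0.26), with sums of 163 to 249 and 45 to 1249. Of all tested miRNAs 50.5% were lower. For the platelet and leukocyte lists the direction depended on the scaling. With no scaling the median over all tested miRNAs was -0.95. There miR-223-3p, miR-126a-3p, miR-24-3p, miR-23a-3p and miR-21a-5p were at -0.13, -0.92, -0.98, -0.92 and -0.10. Of the leukocyte list, miR-142a-3p, miR-150-5p and miR-342-3p were at -0.05, -0.38 and -0.10, and miR-146a-5p at 1.46. The part of these tissues in the miR-140 signal was not tested. By comparison, the list of cartilage and connective tissue summed, miR-140 included, to 310 to 827 at 4 weeks, 173 to 212 at 8 weeks, 156 to 888 at 36 weeks and 122 to 157 at 58 weeks. The 888 came from 36-week replicate 4, where both arms of miR-140 lay at the floor. The other 3 arrays of 36 weeks summed to 156 to 249. All these sums run over every list member on the array, detected or not, with low values set to the floor. They thus hold floor values and undetected background.

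The miRNAs whose log2 signal was most like that of miR-140-3p over the 16 arrays were miR-6995-5p (r = 0.87), miR-709 (0.86), miR-1895 (0.83), miR-7047-5p (0.82) and miR-6908-5p (0.80). The median over the 284 others was -0.13. Without 36-week replicate 4 these r were 0.79, 0.74, 0.65, 0.62 and 0.58. The one in first place was then miR-214-3p (r = 0.82), named after its value was seen. For miR-140-5p the most alike were miR-199a-3p (r = 0.86), let-7g-5p (0.76), miR-27b-3p (0.74), miR-20b-5p (0.72) and miR-15b-5p (0.72), around a median of -0.06. miR-199a-3p kept its place at the top without 36-week replicate 4 (r = 0.81). There let-7g-5p, miR-27b-3p, miR-20b-5p and miR-15b-5p had r of 0.69, 0.63, 0.60 and 0.57, at places 3, 7, 9 and 11. The partner arm was number 29 for miR-140-3p and number 8 for miR-140-5p. Without 36-week replicate 4 it was number 51 and number 23, and the median r to miR-140-5p was 0.28. These values share the background and scaling of each array.

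None of these miRNAs that are in the RefSeq table has the seed of miR-140-3p, and the leading one of each arm is shown with bases 2 to 8 in capitals for comparison with the 3p arm.
miR-6995-5p: cUGGGAGUagaagggggaaacca
miR-199a-3p: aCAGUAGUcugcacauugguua
miR-6995-5p lies at chr19:47273562-47273584 on the minus strand. miR-199a-3p has copies at chr1:162217883-162217904 on the plus strand and chr9:21496498-21496519 on the minus strand (GRCm38.p6). miR-214-3p lies at chr1:162223438-162223459 on the plus strand, close to the first of these.
miR-214-3p: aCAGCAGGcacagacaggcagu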

How the data were processed

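Agilent miRNA arrays (Cy3, 1 colour) of 16 sera were read. The authors made the spot intensities with Agilent Feature Extraction 11.5, as the submitters' processing notes give it; the file headers name 11.5.1.1. Background-subtracted intensity, total signal and detection flags are deposited values. The file headers name no scaling of one array to another.

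From there, outlier spots were left out, and spots and then probes of a miRNA averaged. Each array was scaled to the 75th percentile over 24 miRNAs detected on all arrays, floored at 3.79 and log2-transformed. limma 3.58.1 in R 4.3.3 was fitted over 285 miRNAs detected on at least 3 of 4 arrays of an age, with 1 mean per age or with log2 age and no block, and adjusted by Benjamini-Hochberg. The fit was run on simulated data with large planted changes and a spread below that of the arrays. It was not tested at their own spread. The arm difference was fitted by least squares. The design text counts 4 mice per age; whether sera shared a litter or cage is not given in the sources used here.

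Replicate numbers did not pair the arrays, since correlations of same-numbered deviations ran from -0.896 to 0.812. Members, lists and tests were chosen with earlier results of these data known. Named miRNAs are the arms, the 5 with the highest r to each arm, list members, seed partners, and the 2 hairpins next to miR-140 by SD of the arm difference. The number of arrays limits the precision. The software marked 4-week replicates 1 and 4 and 36-week replicate 4 for evaluation, and all were kept.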

Additional observations from a re-analysis of the deposited data

Results flagged for a closer look

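Of 20 sets of 4 arrays looked at, 3 had a single array far from the rest; chance gives about 1 in 20. miR-140-5p was 7.16 on the log2 scale on 4-week replicate 1, with the other 3 arrays of that age at 5.84 to 5.90. Negative-control spots on that array had an SD of 19.1, and the log2 arm difference was 0.64, the lowest of its age. Without it, miR-140-5p differed by -1.50 for 58 against 4 weeks. The SD of the negative controls was 59.3 on 36-week replicate 4, against 2.76 to 4.39 on the others of its age, and 3.54 on 8-week replicate 3, against 1.82 to 2.01.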

How the results depend on the processing

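The differences of both arms from 4 weeks, and both slopes, were negative under all alternatives run and with each array left out. Normexp with an offset of 50, run on the median spot signal, shrank dim signals by construction: miR-140-3p then had a slope of -0.30 and differed by -1.02 for 36 and -1.17 for 58 against 4 weeks, and miR-140-5p by -0.30, -0.54 and -0.52 for 8, 36 and 58 against 4 weeks. With the deposited total signal, which is 0.1 where an arm was not detected, miR-140-5p had a slope of -0.73 and differed by -3.40 for 58 against 4 and -0.92 for 58 against 36 weeks. The arm difference then had a slope of 0.026 and stood at 0.61 for 58 against 4 and 0.83 for 58 against 36 weeks, so that its direction depended on how undetected signals are set. With slide as a block the slopes of miR-140-5p and of the arm difference were -1.16 ± 0.68 and 0.24 ± 0.68, where the median slope of all miRNAs was -0.58, and quantile normalisation put miR-140-5p at -0.86 for 8 against 4 weeks; the cause was not tested. Leaving out 1 array, the 58 against 4 week difference ran from -3.001 to -2.54 for miR-140-3p, from -1.99 to -1.50 for miR-140-5p and from -1.17 to -0.66 for the arm difference. The replicate block left each difference as it was (-2.72 and -1.82 for 58 against 4 weeks), since the design is balanced, but took the count of all miRNAs that passed for 58 against 4 weeks to 0, and 2 of 16 arrays correlated best with an array of their own number. The count of all miRNAs that passed ran from 0 to 196 for the slope and from 0 to 177 for 58 against 4 weeks, with the highest under array weights, against 1 each. Without the 3 arrays marked for evaluation it was 156 for the slope and 35 for 58 against 4 weeks, the miR-140-5p slope was -0.17 ± 0.17 and the arm difference of 58 against 4 weeks -1.55. The 75th percentile over all 1881 miRNAs was not run, because it was negative (-0.15) on 58-week replicate 3.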
